A study of Oryza sativa with 12 samples.

Results

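Leaves of a rice (Oryza sativa) phr2 mutant that had been without phosphate (Pi) for 3 days were compared with leaves of the same mutant under control conditions. The comparison uses 6 of the 12 leaf RNA libraries of the study, 3 labelled phr2 no Pi and 3 labelled phr2 control. Of 39967 genes in the deposited table, 20613 reached at least 1 FPKM in at least 3 of these 6 libraries and were kept. FPKM is the number of sequenced fragments of a transcript, scaled to its annotated length and to the size of the library. It was summed here over the transcripts of each gene.

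Per the labels, the phr2 no Pi group is a knockout of PHR2, moved to 1/2MS medium lacking Pi at an age of 3 weeks and harvested on day 3. The phr2 control group is the same mutant on 1/2MS medium and is labelled as untreated. The WT no Pi and WT control groups are the cultivar ZH11 handled in the same ways. The labels give no harvest day for the control libraries, do not name the phr2 allele and do not say how many lines or plants the replicates stand for. The p-values therefore measure only the spread between these libraries, which may be technical. Values below are given in the order of replicates 1, 2 and 3.

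PHR2 is a MYB-type transcription factor that switches on Pi starvation genes in rice. When Pi is ample, SPX proteins bind PHR factors and hold them back from their promoters. When Pi runs low, the freed factors raise Pi transporters, acid phosphatases and enzymes that replace membrane phospholipids by galactolipids and sulfolipids. PHR1 and PHR3 are related factors with overlapping roles.

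The PHR2 transcript (Os07g0438800) itself had 23.2, 24.2 and 29.7 FPKM in phr2 no Pi leaves, against 29.6, 26.1 and 21.4 FPKM in phr2 control leaves. It had 24.8, 31.5 and 24.7 FPKM in WT no Pi leaves and 27.5, 17.9 and 22.1 FPKM in WT control leaves. The 4 ranges overlapped, so the level of this transcript does not tell the mutant libraries from the WT libraries. Since the allele is not named, it is not known whether the mutation lowers this transcript, and the libraries are called here by their labels. The phr2 difference, no Pi minus control, was 0.01 on the log2(FPKM + 1) scale (SE 0.28), the scale of every log2 difference below. PHR1 (Os03g0329900), with 44.9, 53.1 and 36.6 FPKM without Pi and 39.5, 53.4 and 37.1 FPKM in control, and PHR3 (Os02g0139000), with 22.8, 23.8 and 22.4 FPKM without Pi and 27.9, 22.6 and 21.2 FPKM in control, also overlapped between the phr2 groups.

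Reads counted per library ranged from 10109727 to 13122430 over the 12 libraries and from 10109727 to 11406204 over the 6 phr2 libraries. The leaf identity of the phr2 libraries was checked with 30 leaf markers, whose median level per library lay between 7.54 and 8.49 on the log2(FPKM + 1) scale, against 3.36 to 3.54 for 53 root and endodermis markers and 3.51 to 3.66 for all genes. The whole-tissue libraries cannot tell fewer cells of a type from less RNA per cell.

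Several of the 6 libraries did not group by their labels. The library labelled phr2 no Pi 3 correlated most closely with WT no Pi 2 (Pearson r = 0.969 across genes) and reached only 0.854 and 0.873 with the other libraries of its own group. It also reached 0.950 with WT control 3, for which it was the closest library of all. The library labelled phr2 control 1 correlated most closely with phr2 no Pi 2 (r = 0.927) and phr2 no Pi 1 (r = 0.926), and reached 0.852 and 0.889 with phr2 control 3 and 2. Conversely, phr2 no Pi 1 and 2 were each closest to phr2 control 1. Results are therefore given with and without phr2 no Pi 3, and beside them the values of phr2 control 1.

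**Figure D1:**
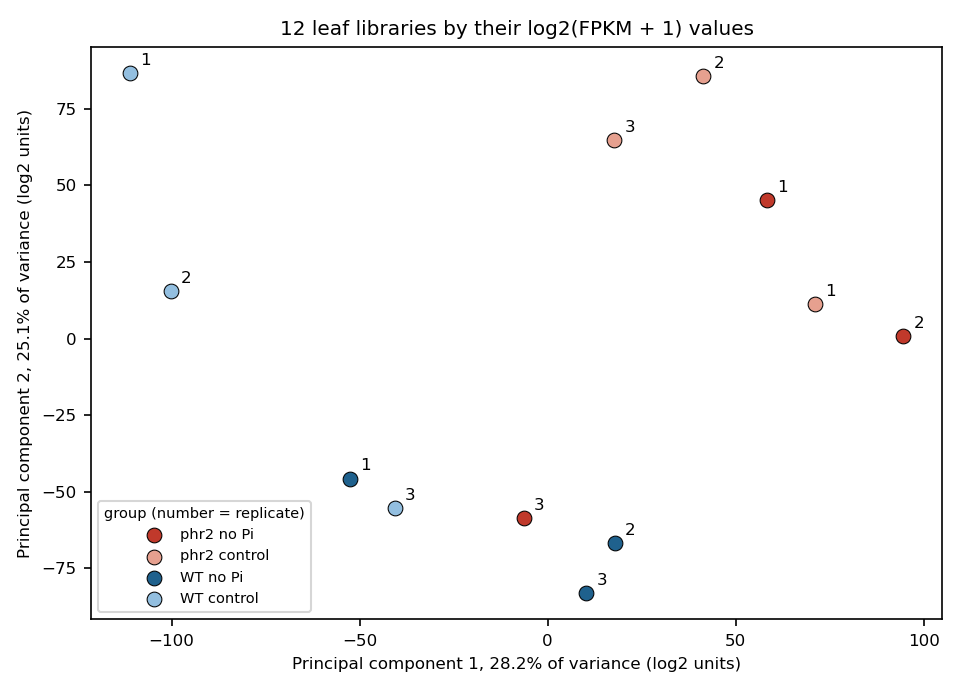
Principal components of log2(FPKM + 1) over the 20613 genes, with 1 point per library, colours for the 4 groups and numbers for replicates. The first component held 28.2% and the second 25.1% of the variance. The point labelled phr2 no Pi 3 lies at −6.42 and −58.6, between WT libraries, and phr2 control 1 lies at 71.1 and 11.2, between phr2 no Pi 1 and 2.

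In the phr2 mutant, 1 of the 20613 genes passed a Benjamini-Hochberg adjusted p under 0.05 (limma over all 12 libraries), which is 0.00485% of the genes tested. It is a locus with no annotation on chromosome 3 at 22633959 to 22636615 in the coordinates of the deposited table, whose rice assembly is not given in the sources used here. It had 0.475, 0.398 and 0 FPKM in phr2 no Pi leaves, against 4.45, 4.28 and 6.21 FPKM in phr2 control leaves. The no Pi values all lay below the control values. It fell by 2.22 on the log2 scale (SE 0.26, adjusted p = 0.0474), and in WT leaves it had 0, 0 and 0 FPKM without Pi and 0.819, 0.569 and 0.644 FPKM in control. Without phr2 no Pi 3 no gene passed in limma (0%; smallest adjusted p = 0.444), and this locus was at a log2 difference of −2.04 (adjusted p = 0.444).

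Counts at an unadjusted p under 0.05 were 827 genes (4.01%) with all 6 libraries and 833 genes (4.04%) without phr2 no Pi 3, and limma voom on recovered reads called 0 genes in both. The WT response, tested over the same genes in the same model, had 596 genes past the adjusted threshold (2.89%), of which 239 rose and 357 fell without Pi, and 5349 genes (25.9%) at an unadjusted p under 0.05. The count of 596 rested on single libraries. It was 0 without WT control 1 or WT control 2, 3310 without WT control 3, 5 without WT no Pi 1 and 1 without WT no Pi 3, and between 63 and 186 when any phr2 library except phr2 no Pi 3 was left out. The median size of the log2 difference was 0.31 over all genes in phr2 and 0.62 in WT.

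The groups' FPKM ranges did not overlap for 2031 genes in phr2 (9.85%), of which 899 were higher without Pi (4.36%) and 1132 lower (5.49%). With phr2 no Pi 3 left out, so that 2 libraries stand against 3, this number was 4214 (20.4%), of which 2012 were higher (9.76%) and 2202 lower (10.7%). In WT it was 5236 genes (25.4%). Genes named next as separated are of this kind, and none of them except the locus on chromosome 3 passed the adjusted threshold in phr2. With so few libraries, ranges also separate when libraries fall in random order, and more often with 2 against 3. The phr2 shares, with and without phr2 no Pi 3, are close to what random order alone would give. Separation by itself therefore does not show a response to Pi.

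The 8 largest differences in each direction were taken among separated genes with a group mean of at least 5 FPKM and an annotation. The largest one upwards was in Os07g0147500, which encodes the 10 kDa subunit PsbR of photosystem II. It had 2833, 4267 and 3630.1 FPKM in phr2 no Pi leaves, against 87.3, 49.9 and 75.4 FPKM in phr2 control leaves, a log2 difference of 5.66 (SE 1.84, adjusted p = 0.998). All 3 no Pi libraries, phr2 no Pi 3 included, stood far above all 3 control libraries. It passed when the phr2 libraries were fitted alone and when WT control 1 was left out. Its WT values were 6121, 4205 and 1128 FPKM without Pi and 0.614, 537 and 1309.6 FPKM in control, where the ranges overlapped. The neighbouring gene Os07g0147550, annotated as similar to the same polypeptide, had 15.8, 18.8 and 10.01 FPKM without Pi and 1.10, 1.91 and 1.92 FPKM in control in phr2. Its ranges were also apart, with a log2 difference of 2.56 in phr2 (SE 0.51, adjusted p = 0.842) and a rise of 4.64 in WT (adjusted p = 0.0112). The table does not say how fragments shared by these similar neighbours were assigned, so the split between them is uncertain.

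A pair of uncharacterised neighbours on chromosome 2 was also separated. Os02g0702300 had 43.1, 25.3 and 92.96 FPKM in phr2 no Pi leaves, against 4.15, 0.802 and 0 FPKM in phr2 control leaves (log2 difference 4.51, SE 1.13). Os02g0702351 had 43.8, 11.1 and 76.0 FPKM without Pi, against 3.34, 0.161 and 0.183 FPKM in control. In both, phr2 no Pi 3 was the highest of the 6 libraries, and in WT the no Pi libraries lay above the control libraries too. These genes overlap on opposite strands, and whether reads were counted by strand is not given in the sources used here, so their reads cannot be told apart. Os07g0153150, a conserved gene of unknown function, had 14.0, 46.1 and 8.02 FPKM without Pi and 0.422, 0 and 0 FPKM in control (log2 difference 4.05, SE 0.72), but in WT its ranges overlapped, at 21.6, 38.1 and 47.8 FPKM without Pi and 4.25, 23.9 and 33.2 FPKM in control. Os03g0280400, which joins the largest upward differences when phr2 no Pi 3 is left out and is annotated as a member of the plant-specific TIGR01589 family to which DGP1 belongs, had 149.6, 260.3 and 92.2 FPKM without Pi, against 9.73, 7.52 and 19.6 FPKM in control.

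The other 4 of the 8 largest upward differences had a different shape. The cytochrome P450 gene Os06g0204100 had 119, 88.7 and 108 FPKM in phr2 no Pi leaves, against 80.9, 0 and 0 FPKM in phr2 control leaves. Os11g0596250 had 60.6, 80.3 and 70.1 FPKM without Pi and 51.2, 0 and 0 FPKM in control. In both, phr2 control 1 was near the no Pi libraries and phr2 control 2 and 3 were listed at 0. The uncharacterised genes Os03g0299700 and Os08g0410900 had the same shape, with 35.0, 45.5 and 110.3 FPKM without Pi and 33.4, 0 and 0.283 FPKM in control for the one, and 26.5, 48.8 and 46.6 FPKM without Pi and 18.5, 0 and 0 FPKM in control for the other.

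Among the 8 largest separated differences downwards were 3 genes of the defence list. CHITINASE 4 (Os04g0493400), an enzyme that cuts fungal cell walls, had 15.4, 4.19 and 3.10 FPKM in phr2 no Pi leaves, against 27.2, 245 and 298 FPKM in phr2 control leaves (log2 difference −4.18, SE 1.02). CHITINASE 5 (Os04g0494100) had 1.31, 0.687 and 0.970 FPKM without Pi and 4.17, 40.6 and 68.6 FPKM in control. PATHOGENESIS-RELATED GENE 1-12 (Os01g0382400) had 36.9, 13.3 and 6.82 FPKM without Pi and 47.9, 323 and 488 FPKM in control. In all 3, phr2 control 1 lay just above the no Pi range and far below phr2 control 2 and 3. The uncharacterised gene Os06g0347966 had this shape too, with 9.17, 8.86 and 7.05 FPKM without Pi and 11.7, 396 and 382 FPKM in control.

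The other 4 were well above the no Pi range in all 3 control libraries. PHYTOCLOCK 1 (Os01g0971800), a GARP factor of the circadian clock, had 7.35, 2.49 and 23.6 FPKM in phr2 no Pi leaves, against 218, 73.8 and 174 FPKM in phr2 control leaves (log2 difference −3.99, SE 1.13). A DnaJ co-chaperone gene (Os04g0675400) had 16.1, 4.08 and 24.8 FPKM without Pi and 219.5, 80.6 and 294 FPKM in control. Os12g0493900, which encodes an armadillo-like helical protein, had 10.2, 3.10 and 26.1 FPKM without Pi and 156, 99.8 and 176 FPKM in control, a log2 difference of −3.71 in phr2, and it fell by 5.28 in WT (adjusted p = 0.0316). An early light-inducible protein gene (Os07g0178800), of the light stress proteins of the chloroplast, had 28.2, 0.882 and 2.77 FPKM without Pi and 64.1, 59.4 and 60.2 FPKM in control. The PsbS gene Os04g0690800, whose protein sets heat dissipation in photosystem II, was separated in the same direction with 29.2, 24.0 and 43.3 FPKM without Pi and 106, 146 and 223 FPKM in control (log2 difference −2.24, SE 0.70). The WT differences were −2.94 for the clock gene, −3.55 for the DnaJ gene and 0.04 for the light-inducible gene, and none of these 3 passed in WT.

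**Figure D2:**
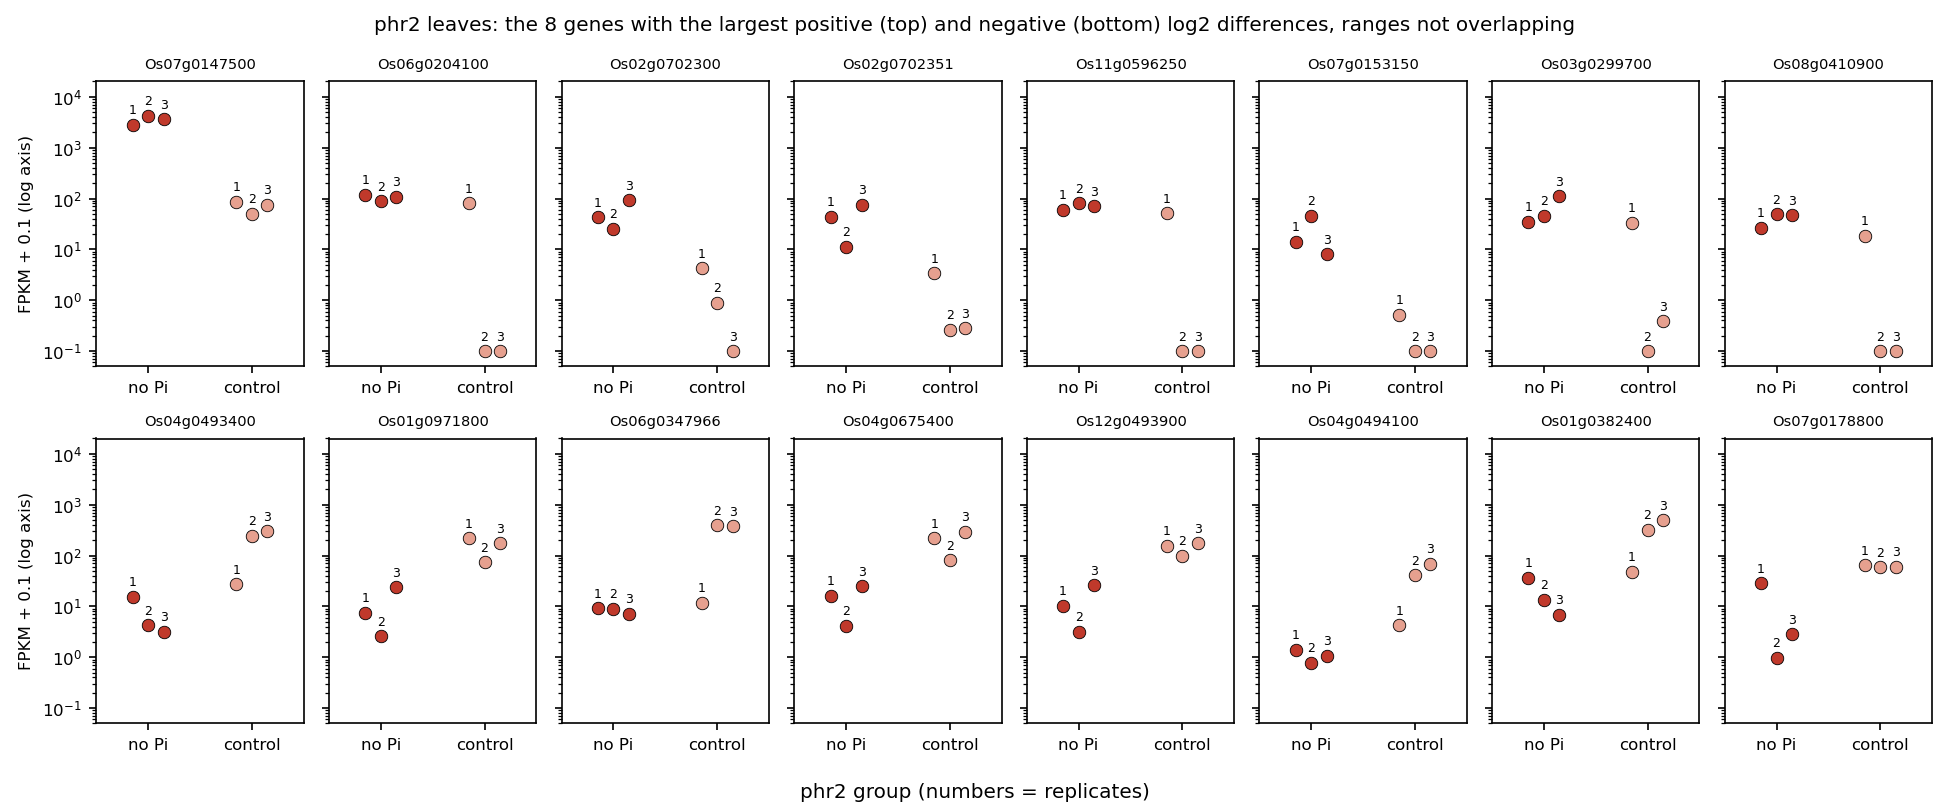
FPKM + 0.1 on a log axis for the 8 genes with the largest positive (top) and the 8 with the largest negative (bottom) log2 differences in phr2 among genes with separated ranges, no Pi left and control right, 1 point per library with its replicate number. In 4 genes of the top row phr2 control 1 lies beside the no Pi libraries while phr2 control 2 and 3 are at or near 0.

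Leaving out phr2 control 1 gave the widest change in the count of genes that passed. Without it 30 of the 20613 genes passed, 21 higher and 9 lower without Pi. Without it and phr2 no Pi 3 there were 47 of 20613, of which 23 were higher and 24 lower. In 29 of the 30 genes, and in 45 of the 47, the left-out control library was nearer to the mean of the no Pi libraries than to the mean of phr2 control 2 and 3. Genes that pass only with this library left out tend to be of this kind, so these counts are no separate evidence about it. Of the 30, 12 were at or under 0.1 FPKM in phr2 control 2 and 3 and at 5 FPKM or more in the other 4 phr2 libraries, and 19 are unannotated loci or genes described as hypothetical, non-coding or of unknown function. The named ones include XA39 (Os11g0588600), a bacterial blight resistance gene with 48.8, 48.6 and 38.8 FPKM in phr2 no Pi leaves, against 33.0, 0 and 0 FPKM in phr2 control leaves. The cytochrome P450 gene 71Z2 (Os07g0217600), a phytoalexin enzyme, had 0.0522, 0 and 0 FPKM without Pi and 1.29, 15.4 and 17.2 FPKM in control.

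Genes that were all or none across libraries were counted to describe this split, after it had been seen. A gene was called present at 5 FPKM or more and absent at 0.1 FPKM or less. Of 213 genes that were present or absent in each of the 12 libraries and not the same in all, 45 were present in phr2 control 2 alone, 43 in phr2 control 2 and 3 alone and 29 in phr2 control 3 alone. A further 35 were absent in phr2 control 2 alone, 23 in phr2 control 3 alone and 13 in both of these alone. Every other pattern held at most 7 genes, and 6 genes were absent in phr2 no Pi 1, phr2 no Pi 2 and phr2 control 1 alone. Within the 6 phr2 libraries, 30 genes were absent in phr2 control 2 and 3 and present in the other 4, of which 14 lie on chromosome 11 (46.7%). Another 49 were present in phr2 control 2 and 3 and absent in the other 4, of which 18 lie on chromosome 6 (36.7%) and 14 on chromosome 11 (28.6%). Of the 15599 genes present in at least 2 of the phr2 libraries, 8.21% lie on chromosome 6 and 5.11% on chromosome 11. The 49 were below the level needed to be kept in the test, since they reach 1 FPKM in 2 of the 6 libraries. The filter thus let in genes absent in phr2 control 2 and 3 but not those present in these 2 alone. This bears on the 21 higher and 9 lower genes that passed without phr2 control 1. The part of this split in the differences between no Pi and control leaves was not tested.

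Some iron genes followed another split of the 6 libraries. The list was gathered by name after its values had been seen, and 44 of 81 matched genes were kept. Of these, phr2 control 1 was at least 2 log2 units below both other phr2 control libraries in 8 (18.2%, against 0.733% of all genes) and above in 3, so most members did not show the split. The IMA/FEP peptide gene Os01g0647200, whose short peptide promotes iron uptake responses, had 0, 2.83 and 6245 FPKM in phr2 no Pi leaves, against 3.49, 16673 and 28649 FPKM in phr2 control leaves. IRON MAN 2 (Os07g0142100), a second such peptide, had 0, 0 and 720.3 FPKM without Pi and 1.16, 9399 and 9726 FPKM in control. Both were at or near 0 in phr2 no Pi 1, phr2 no Pi 2 and phr2 control 1 and high in the other 3 phr2 libraries.

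The bHLH factor IRON-RELATED TRANSCRIPTION FACTOR 2 (Os01g0952800), which activates iron uptake genes, had 0.872, 0.915 and 322 FPKM in phr2 no Pi leaves, against 1.03, 918 and 988 FPKM in phr2 control leaves. YELLOW STRIP-LIKE GENE 2 (Os02g0649900), a transporter of iron and manganese bound to nicotianamine, had 5.01, 2.77 and 287 FPKM without Pi and 2.05, 519 and 738 FPKM in control. MITOCHONDRIAL IRON-REGULATED GENE (Os12g0282000) had 0, 0 and 31.8 FPKM without Pi and 0, 485 and 389 FPKM in control. All 3 were well above 0 in all 6 WT libraries, the lowest WT values being 169, 112 and 19.5 FPKM, each in WT no Pi 2.

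FERRITIN 2 (Os12g0106000), which stores iron, showed the opposite order, with 3162, 1292 and 43.6 FPKM in phr2 no Pi leaves and 3849, 215 and 494 FPKM in phr2 control leaves. VACUOLAR IRON TRANSPORTER 1 (Os09g0396900) had 10.5, 13.2 and 0.103 FPKM without Pi and 10.6, 0 and 0 FPKM in control. Both were highest in phr2 no Pi 1, phr2 no Pi 2 and phr2 control 1. The log2 difference of FERRITIN 2 was −0.39 with all libraries and 1.44 without phr2 no Pi 3. None of the 44 genes passed in phr2, and their median log2 difference was −0.29 with all libraries and −0.06 without phr2 no Pi 3, against 0.01 and 0.02 for all genes. Without both phr2 control 1 and phr2 no Pi 3, 6 of them were among the 47 of 20613 genes that passed. Among these was the peptide gene Os01g0647200, at an adjusted p of 0.0011, against 0.998 with all libraries (limma). Both left-out libraries are ones in which this gene stood apart from its group. The list was also made with its values known, so this small p follows largely from these choices.

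**Figure D3:**
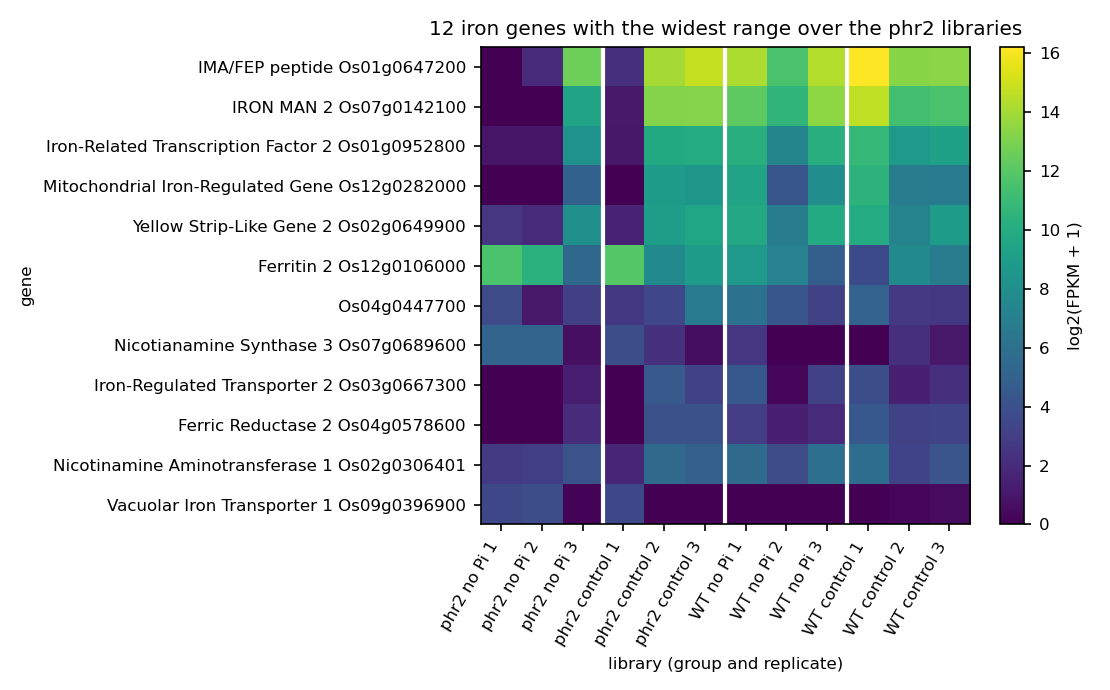
Levels as log2(FPKM + 1) of the 12 genes of the iron list with the widest range over the 6 phr2 libraries, with 1 column per library and white lines between groups. The peptide genes and the bHLH factor are dark in phr2 no Pi 1, phr2 no Pi 2 and phr2 control 1, where FERRITIN 2 is bright.

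No member of the 4 Pi lists passed in phr2 (limma). Over 34 Pi signalling genes the median log2 difference was 0.07, over 25 Pi transporters −0.03, over 37 acid phosphatases and S-like RNases 0.03 and over 35 genes of membrane lipid remodelling 0.20. The median of all genes was 0.01. With phr2 no Pi 3 left out, the 4 medians were 0.05, −0.09, −0.02 and 0.28. In WT they were 0.13, 0.13, −0.04 and 0.12, where 2, 1, 0 and 1 members rose and 1 member of each list fell. The lists are word matches, and the signalling list also holds a photolyase named PHR2 (Os03g0343400), which was separated downwards in phr2 at 87.8, 106 and 119 FPKM without Pi and 141, 161 and 153 FPKM in control.

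The Pi starvation-induced acid phosphatase gene Os01g0720400 had 189, 27.5 and 32.9 FPKM in phr2 no Pi leaves, against 48.5, 8.96 and 9.92 FPKM in phr2 control leaves (log2 difference 1.70, SE 0.73, unadjusted p = 0.0392, adjusted p = 0.998, limma). The ranges overlapped through phr2 control 1. In WT it had 27.3, 18.8 and 26.4 FPKM without Pi and 63.5, 39.1 and 70.2 FPKM in control, a log2 difference of −1.20. PHF1 (Os07g0187700), which helps Pi transporters reach the plasma membrane, had 68.0, 87.0 and 149.8 FPKM without Pi and 85.7, 56.5 and 36.3 FPKM in control in phr2, with overlap. PHOSPHATE TRANSPORTER 20 (Os09g0554000), of the mitochondrial carriers, was separated downwards at 2.96, 2.48 and 2.23 FPKM without Pi and 4.90, 4.22 and 4.05 FPKM in control, a log2 difference of −0.60.

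Other Pi genes had overlapping ranges in phr2. CYCLIN-U3-1 (Os05g0398000), a P-type cyclin that restrains Pi starvation signalling, rose by 2.94 in WT (adjusted p = 0.0403) and had 2.17, 7.18 and 18.2 FPKM in phr2 no Pi leaves, against 4.76, 3.01 and 4.12 FPKM in phr2 control leaves. NITROGEN LIMITATION ADAPTATION 1 (Os07g0673200), a ubiquitin ligase that marks Pi transporters for breakdown, had 15.3, 26.5 and 21.1 FPKM without Pi and 10.7, 8.67 and 26.0 FPKM in control. PHOSPHATE TRANSPORTER 1;1 (Os01g0110100), a plasma membrane Pi carrier, had 4.29, 3.26 and 2.07 FPKM without Pi and 2.498, 5.45 and 4.67 FPKM in control. These 3 were added for their roles, with the values known.

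Of the lipid genes, 4 of 35 were separated upwards (11.4%, against 4.36% of all genes) and none downwards. PHOSPHOLIPASE D ALPHA 5 (Os06g0604300), a chloroplast enzyme that cuts phospholipids, had 4.30, 4.78 and 3.32 FPKM in phr2 no Pi leaves, against 1.49, 2.54 and 2.00 FPKM in phr2 control leaves (log2 difference 0.78, SE 0.34). Its WT values were 1.36, 1.58 and 0.954 FPKM without Pi and 5.58, 12.2 and 6.81 FPKM in control, where it fell by 1.95 (adjusted p = 0.03). The difference of the responses had an unadjusted p of 1.11e-04 and an adjusted p of 0.411 in limma, so it did not pass. NON-SPECIFIC PHOSPHOLIPASE C2 (Os01g0955000) had 11.9, 16.8 and 11.9 FPKM without Pi and 2.85, 7.16 and 7.63 FPKM in control, and a lipin (Os05g0462400), which removes phosphate from phosphatidic acid, had 24.6, 22.1 and 22.3 FPKM without Pi and 10.9, 15.5 and 19.7 FPKM in control. The galactolipid synthase gene Os04g0416900 had 23.2, 16.4 and 19.3 FPKM without Pi and 17.7, 2.28 and 6.91 FPKM in control, overlapping through phr2 control 1.

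That library stood apart in other Pi genes. Across the 4 Pi lists together, phr2 control 1 was at least 2 log2 units above both other phr2 control libraries in 6 genes (4.88%) and below in 0, against 1.43% and 0.733% of all genes, a count made after the values were seen. GLYCEROPHOSPHODIESTER PHOSPHODIESTERASE 2 (Os02g0514500), which breaks down the head groups of degraded phospholipids, had 69.6, 17.9 and 4.26 FPKM in phr2 no Pi leaves, against 73.3, 0.534 and 0.346 FPKM in phr2 control leaves. The SPX-MFS gene Os02g0678200, of the Pi carriers of the vacuole, had 180.2, 92.6 and 22.1 FPKM without Pi and 258, 22.03 and 11.5 FPKM in control. PURPLE ACID PHOSPHATASE 10A (Os01g0776600), a secreted phosphatase, had 28.3, 8.46 and 3.72 FPKM without Pi and 14.1, 2.55 and 0.867 FPKM in control. In all 3, phr2 no Pi 1 and phr2 control 1 were the highest pair of the 6 libraries, and phr2 no Pi 3, phr2 control 2 and phr2 control 3 were the lowest 3. The other 3 of the 6 genes were Os08g0535700 and Os03g0603600, both glycerophosphodiester phosphodiesterase genes, and Os01g0720400. None of these had the full order of the 3 genes above. In Os08g0535700 and Os01g0720400, phr2 no Pi 1 and phr2 control 1 were again the highest pair, but phr2 no Pi 3 lay above phr2 no Pi 2. In Os03g0603600, phr2 no Pi 2 and phr2 no Pi 3 were the highest pair, and phr2 no Pi 1 lay below phr2 control 1.

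Genes for cytosolic ribosomal proteins were mostly lower without Pi. Of 212 kept, 194 had lower means without Pi in phr2, and 71 were separated downwards (33.5%, against 5.49% of all genes) and 1 upwards, although none passed the adjusted threshold. Their median level per library was 7.64, 7.02 and 7.39 in phr2 no Pi leaves, against 7.88, 7.76 and 8.04 in phr2 control leaves, on the log2(FPKM + 1) scale. The median log2 difference was −0.51 with all 6 libraries, −0.53 without phr2 no Pi 3 and −0.82 in WT, where 3 fell. Rescaling every library to the same FPKM sum moved the median of all genes to 0.10 in phr2 and to 0.42 in WT, and the ribosomal list was then at −0.41 in phr2 and −0.28 in WT. After quantile normalization it was −0.36 in phr2. RIBOSOMAL PROTEIN S8 (Os02g0489400) had 277, 174 and 210.3 FPKM without Pi and 359.9, 344 and 595 FPKM in control (log2 difference −0.95, SE 0.35). RIBOSOMAL PROTEIN S3AB (Os12g0406200) had 179, 125 and 177 FPKM without Pi and 232, 256 and 358 FPKM in control.

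On the deposited scale the photosynthesis lists had negative medians in both genotypes, and differences between the genotypes were not tested for the lists. The median log2 difference of 56 light harvesting and photosystem genes was −0.30 in phr2, −0.03 without phr2 no Pi 3 and −0.97 in WT, where 2 rose and 8 fell. In phr2, 2 of them were separated upwards, which are the neighbouring 10 kDa genes, and 7 downwards (12.5%, against 5.49% of all genes). A type II chlorophyll a/b binding protein gene (Os09g0439500) had 122.95, 157 and 185 FPKM in phr2 no Pi leaves, against 254, 349.6 and 237 FPKM in phr2 control leaves, and in WT it fell by 2.88 (adjusted p = 0.0266). The 30 leaf markers, which share members with that list, were at −0.27 in phr2, −0.01 without phr2 no Pi 3 and −1.17 in WT.

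Over 28 chlorophyll synthesis genes the median was −0.02 in phr2 and −0.45 in WT, and over 52 Calvin cycle genes it was −0.20 in phr2 and −0.15 in WT. With phr2 no Pi 3 left out, the phr2 medians were −0.10 for the chlorophyll list and −0.08 for the Calvin list. After rescaling to the same FPKM sum, the median of all genes was 0.10 in phr2 and 0.42 in WT. The chlorophyll list was then at 0.07 in both genotypes, which is near all genes in phr2 and below them in WT. The Calvin list was at −0.11 in phr2 and 0.38 in WT, and the light harvesting list at −0.20 in phr2 and −0.43 in WT. ETIOLATED LEAF AND LETHAL (Os03g0563300), the ChlI subunit of magnesium chelatase, had 346, 467 and 398 FPKM in phr2 no Pi leaves, against 569, 769 and 552 FPKM in phr2 control leaves (log2 difference −0.64, SE 0.28), and it fell by 1.53 in WT. DGP1 (Os01g0837600), a regulator that restrains GLK factors of chloroplast development, had 133, 248 and 675 FPKM without Pi and 169.6, 216 and 354 FPKM in control. GLK2 (Os01g0239000) had 89.8, 67.7 and 47.1 FPKM without Pi and 39.3, 66.2 and 50.2 FPKM in control. Both overlapped between the phr2 groups with all libraries. The log2 difference of DGP1 was 0.26 with all libraries and −0.37 without phr2 no Pi 3. That of GLK2 was 0.37 with all libraries and 0.61 without phr2 no Pi 3, where GLK2 was separated upwards but did not pass.

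The glyoxylate cycle turns carbon from fatty acids into precursors of sugars, through isocitrate lyase and malate synthase. ISOCITRATE LYASE (Os07g0529000) had 18.2, 4.70 and 0.756 FPKM in phr2 no Pi leaves, against 2.77, 11.9 and 14.5 FPKM in phr2 control leaves, and 1122, 52.0 and 98.0 FPKM in WT no Pi leaves, against 0.0740, 1.95 and 0.107 FPKM in WT control leaves. The phr2 ranges overlapped and the WT ranges did not, with log2 differences of −0.66 in phr2 and 6.89 in WT (adjusted p = 0.0266). The difference of the responses had an unadjusted p of 4.57e-04 and an adjusted p of 0.411 in limma. MALATE SYNTHASE (Os04g0486950) was separated in both genotypes, with 66.5, 27.7 and 23.8 FPKM in phr2 no Pi leaves, against 6.27, 17.0 and 9.43 FPKM in phr2 control leaves (log2 difference 1.71, SE 0.78), and a rise of 6.15 in WT. Over the 17 genes of this cycle and of fatty acid breakdown, the median was 0.22 in phr2 and 1.19 in WT, where 7 rose. In phr2, 3 of the 17 were separated upwards (17.6%, against 4.36% of all genes), which are MALATE SYNTHASE, an acyl-CoA oxidase gene (Os11g0605500) and a MaoC-like dehydratase gene (Os09g0544900).

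Over the remaining lists the phr2 medians lay between −0.11 and 0.13, with no member past the threshold. The 107 nitrogen genes were at −0.11 in phr2 and −0.33 in WT, the 80 senescence genes at 0.10 in phr2 and 0.03 in WT, and the 41 jasmonate genes at 0.13 in phr2 and −0.28 in WT. The 124 defence genes were at −0.08 in phr2 and −0.25 in WT, and the 198 heat shock and folding genes at −0.11 in phr2 and 0.09 in WT. The 139 sucrose and starch genes were at 0.11 in phr2 and −0.24 in WT, and the 12 clock genes at −0.03 in phr2 and 0.37 in WT. The 53 root and endodermis markers were at 0.03 in phr2 and −0.39 in WT. After the same rescaling the phr2 medians of these lists lay between −0.02 and 0.23, around 0.10 for all genes. The WT medians then lay between −0.003 and 0.83, around 0.42 for all genes. The negative WT medians of the jasmonate, defence, sucrose and starch, and root lists thus turned positive. With all libraries 8 defence genes were separated downwards (6.45%, against 5.49% of all genes). With phr2 no Pi 3 left out, 18 were, against 10.7% of all genes, and the list was at −0.31. The other medians were then 0.00 for nitrogen, 0.06 for senescence, 0.01 for jasmonate, −0.04 for heat shock, 0.07 for sucrose and starch, 0.10 for clock genes and 0.03 for the root markers. A thaumatin gene of the PR class (Os12g0630200) had 0.679, 0.119 and 0 FPKM in phr2 no Pi leaves, against 2.57, 15.3 and 26.4 FPKM in phr2 control leaves, again with phr2 control 1 between the no Pi libraries and the other control libraries. S40 PROTEIN 13 (Os04g0520700), of a family tied to leaf senescence, was at 74.2, 66.1 and 68.3 FPKM in phr2 no Pi leaves, against 13.8, 21.4 and 15.01 FPKM in phr2 control leaves (log2 difference 2.02, SE 0.63), with a WT difference of 0.20. TREHALOSE-6-PHOSPHATE SYNTHASE 10 (Os09g0397300) was separated upwards at 38.6, 37.3 and 124 FPKM without Pi and 13.8, 28.8 and 18.6 FPKM in control, its highest value being in phr2 no Pi 3. Os01g0872100, in the nitrogen list through its Swiss-Prot match to a member of the NRT1/PTR transporter family, though described in the table as a receptor region protein, was separated downwards at 7.83, 4.29 and 7.85 FPKM without Pi and 29.4, 39.3 and 44.6 FPKM in control (log2 difference −2.36, SE 0.55). NITRATE TRANSPORTER 1.4 (Os01g0556700) had 5.68, 31.8 and 3.06 FPKM without Pi and 6.66, 0.594 and 0 FPKM in control, with overlap through phr2 control 1.

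**Figure D4:**
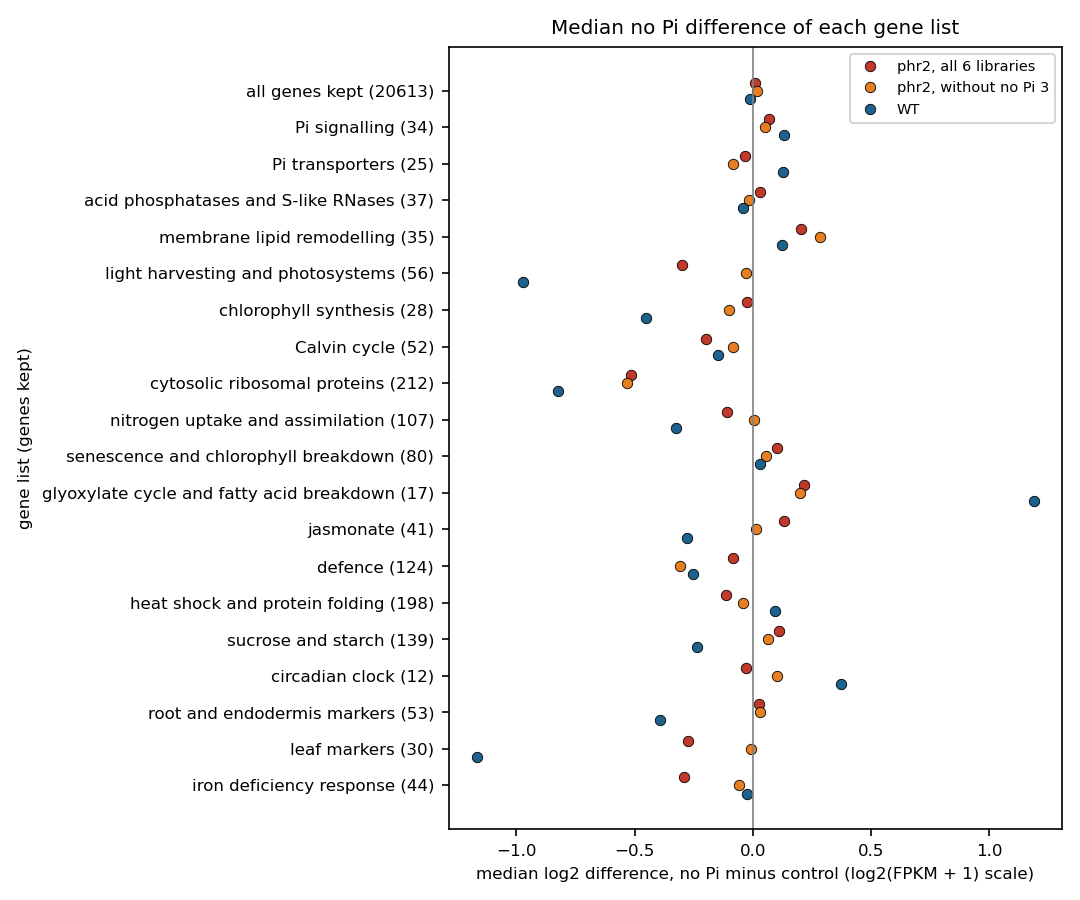
Median log2 difference, no Pi minus control, of each gene list (number of genes kept in brackets), for phr2 with all 6 libraries, phr2 without phr2 no Pi 3 and WT. Cytosolic ribosomal proteins are the list farthest below 0 in phr2, at −0.51 and −0.53, and the glyoxylate list is the farthest above 0 in WT, at 1.19.

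The genes that responded in WT were then read in the phr2 libraries, which bore on that choice through the filter of at least 1 FPKM in 3 of the 6 phr2 libraries and through the shared spread of the model. The 239 genes that rose in WT, by a median of 2.04, had a median log2 difference of 0.23 in phr2 and 0.26 without phr2 no Pi 3. In phr2, 179 of them (74.9%) were higher without Pi, against 51.1% of all genes. Of the 239, 34 were separated upwards (14.23%, against 4.36% of all genes) and 5 downwards. The 357 genes that fell in WT had a median of −0.50 in phr2 and −0.48 without phr2 no Pi 3. Of these, 312 (87.4%) were lower without Pi in phr2, against 48.9% of all genes. Of the 357, 113 were separated downwards (31.65%, against 5.49% of all genes) and 5 upwards. None of the 596 passed in phr2.

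Because phr2 no Pi 3 lies close to WT no Pi 2, the WT genes were also chosen without that WT library, an alternative added after the data were seen. The choice was not repeated without WT control 3, to which phr2 no Pi 3 is also close. The 253 genes that then rose had a phr2 median of 0.17, and 66.4% of them were higher without Pi in phr2, against 51.1% of all genes. The 465 that then fell had −0.47, and 85.6% of them were lower, against 48.9%. Across all 20613 genes the log2 differences of phr2 and WT, which share no library, had a Pearson r of 0.28 and a Spearman rho of 0.32, and of 0.29 and 0.32 without phr2 no Pi 3. These describe genes, which are not independent replicates.

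In median level the phr2 libraries lay between the WT groups. Over the genes that rose in WT, the medians were 4.27, 4.74 and 4.47 in phr2 no Pi leaves, against 4.43, 3.98 and 4.43 in phr2 control leaves, on the log2(FPKM + 1) scale. They were 5.32, 5.02 and 5.67 in WT no Pi leaves, against 2.73, 2.65 and 3.60 in WT control leaves. All 3 phr2 control libraries lay above all 3 WT control libraries, and all 3 phr2 no Pi libraries lay below all 3 WT no Pi libraries. Over the genes that fell in WT, the phr2 medians were 5.04, 4.83 and 4.95 without Pi and 5.17, 5.74 and 5.53 in control, and the WT medians were 4.33, 4.55 and 3.86 without Pi and 6.53, 6.398 and 5.86 in control. The WT groups had to be apart, since these genes were chosen on them. Libraries not compared in that choice tend to fall between the chosen groups. Whether the place of the phr2 libraries there means more than this was not tested.

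**Figure D5:**
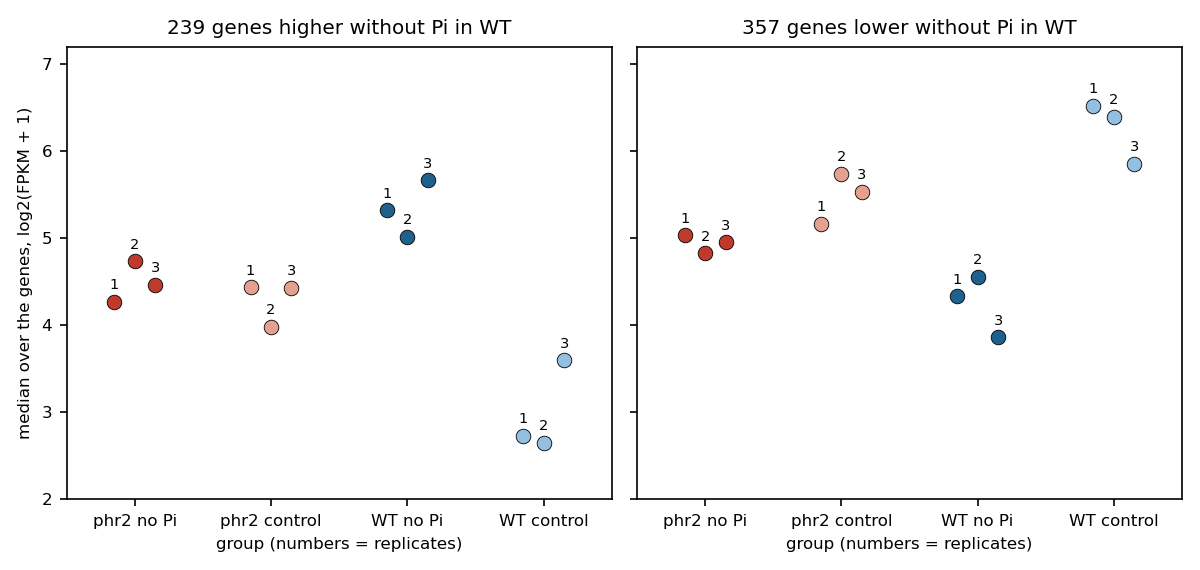
Median log2(FPKM + 1) per library over the 239 genes that rose (left) and the 357 genes that fell (right) without Pi in WT, with 1 point per library and its replicate number. On the left the phr2 groups overlap, between 3.98 and 4.74, and on the right the phr2 no Pi libraries lie just below the phr2 control libraries.

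The leading WT genes differed in how far phr2 went along. The chymotrypsin protease inhibitor gene Os01g0615100, annotated for salt and osmotic stress tolerance, rose by 6.85 in WT and had 83.3, 1.94 and 34.6 FPKM in phr2 no Pi leaves, against 87.4, 14.6 and 464 FPKM in phr2 control leaves. Os03g0826900, of unknown function, rose by 5.59 in WT and had 2.19, 0.766 and 80.9 FPKM without Pi and 1.73, 3.21 and 3.19 FPKM in control in phr2, where phr2 no Pi 3 alone was high. The uncharacterised gene Os07g0204100 rose by 5.31 in WT and was at 29.0, 83.8 and 15.4 FPKM without Pi and 19.8, 11.6 and 18.0 FPKM in control in phr2. None of these had separated ranges in phr2 with all libraries. Without phr2 no Pi 3, Os07g0204100 was separated upwards, at a log2 difference of 1.56, but did not pass.

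YELLOW-GREEN LEAF 18 (Os06g0132400), which by its annotation adds a methyl group to a precursor of chlorophyll, fell by 3.21 in WT. It had 466, 346 and 434 FPKM in phr2 no Pi leaves, against 658, 874 and 638 FPKM in phr2 control leaves, a separated log2 difference of −0.80. Os05g0226300, annotated as similar to FIP1, was separated downwards as well, with 11.4, 7.198 and 4.53 FPKM without Pi and 11.8, 18.7 and 14.9 FPKM in control. The phospholipase A2 gene Os03g0261100, which fell by 3.92 in WT, had 66.7, 74.4 and 72.5 FPKM without Pi and 59.2, 273 and 456 FPKM in control, and the homeodomain-like gene Os05g0579600, which fell by 3.56 in WT, had 182, 81.3 and 38.1 FPKM without Pi and 75.7, 373 and 446 FPKM in control. In both, phr2 control 1 was below at least 1 of the no Pi libraries and phr2 control 2 and 3 were above them.

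Whether the response of phr2 differed from that of WT was tested gene by gene as the difference of the log2 differences. No gene passed in limma (0%), at a smallest adjusted p of 0.411, while 1814 genes (8.8%) had an unadjusted p under 0.05 and limma voom called 0. Without phr2 no Pi 3 no gene passed either, at a smallest adjusted p of 0.177, and 1554 genes (7.54%) had an unadjusted p under 0.05. Of the genes named here, PHOSPHOLIPASE D ALPHA 5, ISOCITRATE LYASE and Os07g0204100 had unadjusted p values of 1.11e-04, 4.57e-04 and 5.53e-04 in this limma test. Os01g0615100, MALATE SYNTHASE and the locus on chromosome 3 had 0.00158, 0.00169 and 0.00183 in the same limma test. These genes were named for their responses in phr2 or in WT, which favours small p values here. A p that misses the threshold does not show that the genotypes responded alike. Without phr2 control 1, 22 genes passed this test, 19 with a higher log2 difference in phr2 than in WT and 3 with a lower one.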

How the data were processed

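Leaf RNA was sequenced in 12 libraries, 3 in each of 4 groups. The deposited table gives the authors' FPKM values per transcript; HISAT2 2.0 and StringTie 1.3.0 are named in the submitters' processing notes, which also list Bowtie 0.12.2 and the mouse build mm8, whose use for these rice values is not explained. Library depth was taken from whole fragments recovered from FPKM and length (100% of values whole within 0.01 fragments), and a minimum of reads per library of 10109727 limits the precision of low values. FPKM was summed per gene over 46947 transcript rows, genes at 1 FPKM or more in at least 3 of the 6 phr2 libraries were kept, and log2(FPKM + 1) was analysed, which understates the change of low genes. Differences were tested with limma 3.58.1 (trend, 4 group means, R 4.3.3) with Benjamini-Hochberg adjustment over all genes kept, giving 8 residual degrees of freedom. The fit was also run on simulated data with independent normal noise. No simulated library stood apart from its group, so that run does not speak to such libraries here. Figures were drawn with matplotlib 3.10.9.

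The genes and lists (matched by words in names and annotations) were chosen with earlier results of these data known. Named genes were the 2 or 3 members of each list with the smallest p in phr2, the largest separated differences with a mean of at least 5 FPKM with and without phr2 no Pi 3, any gene that passed, and the largest WT responses. The iron genes, the genes named for the place of phr2 control 1 and a few members named for their roles were added after their values were seen. Same-numbered phr2 libraries did not deviate together (correlations of −0.25, −0.05 and 0.10), so the numbers were not used as pairs.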

Additional observations from a re-analysis of the deposited data

How the results depend on the processing

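The count of genes that passed in phr2 was 1, and it was 0 with a pseudocount of 0.1, with the filter taken over all 12 libraries, with limma voom on recovered reads and with the replicate block, and 0 without phr2 control 2 and 3 together, an alternative added after seeing the data. With the phr2 libraries alone the count was 1 but the gene was Os07g0147500 in place of the locus on chromosome 3. Leaving out each library gave 0 to 30, with 3 without WT control 1, 30 without phr2 control 1 and 0 without any other. Without phr2 no Pi 3 the count of 0 became 4 with no filter and 1 with the phr2 libraries alone, and 0 to 47 on leaving out a further library. The difference of the responses gave 0 under each of these settings that could be run on both genotypes, except 1 without WT no Pi 2 and 22 without phr2 control 1. The WT count of 596 became 86 with no filter, 1190 after rescaling to the same FPKM sum (1020 higher and 170 lower), 199 after quantile normalization (94 higher and 105 lower), 1427 with voom (1240 higher and 187 lower), 238 with the replicate block, 0 with the WT libraries alone and 0 to 3310 on leaving out a library. The medians in phr2 of the WT genes lay between 0.12 and 0.34 for those higher and between −0.59 and −0.40 for those lower. PHR2 (Os07g0438800) turned to −0.015 after quantile normalization and ranged from −0.12 (without phr2 control 3) to 0.11 on leaving out a library. DGP1 (Os01g0837600) ranged from −0.37 to 0.80, ISOCITRATE LYASE (Os07g0529000) from −1.53 to 0.20 and Os03g0826900 from −0.62 to 2.15, each turning its sign without phr2 no Pi 3, as did PHR2 at −0.10. The other genes chosen by the naming rule kept their direction under the alternatives run on single genes, which were not run on genes named outside that rule. Of the list medians, 9 of those recomputed moved by more than their spread, to between −0.11 and 0.12. The causes were not tested. Replicate numbers share only a number here, and library weighting did not converge and was not run. Depth limits genes near 1 FPKM.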
